A study of Mus musculus with 42 samples.

Results

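Bivalent chromatin carries trimethylation of lysine 4 and of lysine 27 of histone H3 (H3K4me3 and H3K27me3) over the same stretch of DNA. The bivalent regions of solvent-treated mouse mesenchymal stromal cells were defined from the islands of enrichment that the authors called in each ChIP-seq library. Islands of the 4 H3K4me3 libraries from DMSO-treated cells were merged where they overlapped or touched, and a merged region was kept when at least 3 of the 4 libraries had an island in it. The 4 H3K27me3 libraries from DMSO-treated cells were treated in the same way. A kept H3K4me3 region that overlapped a kept H3K27me3 region by at least 1 bp was called bivalent. On the 19 autosomes 2439 of 14607 kept H3K4me3 regions (16.7%) met this rule, and the other 12168 are called the other H3K4me3 regions here. Of 7918 kept H3K27me3 regions, 2080 (26.3%) overlapped a kept H3K4me3 region. Because the DMSO values of both marks chose the regions, those values are given as a description with no test.

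The study asked how chemicals that activate the retinoid X receptor (RXR) act on undifferentiated multipotent stromal cells from the bone marrow of C57BL/6 mice. The cells were a commercial stock grown in culture, and nothing in the labels says whether replicates were separate cultures. The p-values therefore rest on differences among libraries that may be only technical. ChIP-seq was done after 48 h of tributyltin at 50 nM (TBT, an organotin that activates RXR and PPARγ) or of the solvent DMSO at 0.1%, with 4 libraries per mark and treatment and 1 input library per treatment. RNA-seq was done on 6 libraries each from cells given TBT at 50 nM, 4204 (AGN194204, a synthetic RXR agonist) at 100 nM, ROSI (rosiglitazone, a PPARγ agonist) at 100 nM, or DMSO at 0.1%, for 48 h.

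H3K4me3 is laid down at the starts of genes, above all at those rich in CpG dinucleotides, and accompanies transcription. H3K27me3 is written by Polycomb repressive complex 2 and covers genes that are held silent. In embryonic stem cells the 2 marks occur together at the promoters of developmental regulators, whose RNA is low until a lineage is chosen. In mesenchymal stromal cells such regulators include genes that steer the choice between fat, bone and cartilage. Each mark was precipitated from a whole culture, so both marks on the same nucleosome cannot be told apart from each mark in a different share of the cells.

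Promoter windows of 6 genes that start in bivalent regions show the range of DNA in the set, from 250 bases before to 50 bases after the annotated start (RefSeq, GRCm38.p6). Col8a2, Kif1a and Foxd1 lay under strong H3K27me3, and Cebpa is an adipogenic regulator. Pde1b and Plin4 had the 2 largest RNA increases under TBT among the genes ranked below. The 6 windows stand on chr4:126286544-126286843 (+ strand), chr1:93101825-93102124 (- strand), chr13:98353995-98354294 (+ strand), chr7:35119043-35119342 (+ strand), chr15:103502784-103503083 (+ strand) and chr17:56109733-56110032 (- strand), in the order printed. Capitals mark CpG dinucleotides.
Col8a2: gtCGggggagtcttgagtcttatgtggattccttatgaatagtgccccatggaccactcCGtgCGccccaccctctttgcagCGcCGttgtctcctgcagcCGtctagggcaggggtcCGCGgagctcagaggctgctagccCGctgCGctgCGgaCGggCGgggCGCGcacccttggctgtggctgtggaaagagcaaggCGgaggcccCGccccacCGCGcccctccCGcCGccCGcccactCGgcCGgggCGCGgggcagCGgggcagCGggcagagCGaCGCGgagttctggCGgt
Kif1a: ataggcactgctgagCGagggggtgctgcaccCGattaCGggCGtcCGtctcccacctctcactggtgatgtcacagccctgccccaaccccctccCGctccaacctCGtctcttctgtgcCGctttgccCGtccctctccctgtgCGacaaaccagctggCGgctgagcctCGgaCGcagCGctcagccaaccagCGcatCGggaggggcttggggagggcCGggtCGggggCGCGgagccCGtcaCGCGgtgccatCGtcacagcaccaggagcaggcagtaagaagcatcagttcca
Foxd1: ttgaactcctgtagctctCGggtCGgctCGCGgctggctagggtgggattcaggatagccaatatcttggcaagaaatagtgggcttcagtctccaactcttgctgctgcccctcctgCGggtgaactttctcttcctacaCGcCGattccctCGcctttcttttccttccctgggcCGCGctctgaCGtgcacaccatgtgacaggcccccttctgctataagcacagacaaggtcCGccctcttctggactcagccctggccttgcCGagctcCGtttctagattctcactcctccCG
Cebpa: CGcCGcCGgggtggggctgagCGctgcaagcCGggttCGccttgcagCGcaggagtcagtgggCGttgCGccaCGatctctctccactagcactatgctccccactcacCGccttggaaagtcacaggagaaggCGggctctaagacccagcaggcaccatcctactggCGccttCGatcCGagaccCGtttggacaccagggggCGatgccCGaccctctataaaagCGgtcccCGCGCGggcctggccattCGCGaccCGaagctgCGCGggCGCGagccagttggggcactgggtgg
Pde1b: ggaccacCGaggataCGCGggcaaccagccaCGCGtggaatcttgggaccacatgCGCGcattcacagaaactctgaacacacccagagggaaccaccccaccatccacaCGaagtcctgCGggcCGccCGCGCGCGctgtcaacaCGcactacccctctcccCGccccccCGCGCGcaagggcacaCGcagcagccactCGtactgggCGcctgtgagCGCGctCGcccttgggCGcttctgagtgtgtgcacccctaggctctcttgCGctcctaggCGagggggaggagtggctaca
Plin4: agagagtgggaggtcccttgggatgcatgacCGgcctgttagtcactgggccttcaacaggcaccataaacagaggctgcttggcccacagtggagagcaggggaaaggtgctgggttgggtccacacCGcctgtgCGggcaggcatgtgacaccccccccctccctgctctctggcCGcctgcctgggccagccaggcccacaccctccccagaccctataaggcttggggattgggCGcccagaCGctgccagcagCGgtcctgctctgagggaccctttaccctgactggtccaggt

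The Col8a2 window held 32 CpGs, the Cebpa window 29, the Pde1b window 28, the Kif1a window 24 and the Foxd1 window 15. The Plin4 window held 7 CpGs although its GC content was 65%, and its observed-to-expected CpG ratio was 0.221, against 0.853 at Cebpa. Over all 2263 windows in bivalent regions the median was 20 CpGs and a GC content of 63%, against 21 CpGs and 61.7% for 11911 windows in the other H3K4me3 regions and 3 CpGs and 47.7% for 17222 windows outside both. The GC box GGGCGG, read on both strands, occurred in 64.6% of the windows in bivalent regions, 64.8% of those in the other H3K4me3 regions and 36.0% of all 31396 windows. TATAAA, read on both strands, was found in 7.29%, 6.30% and 13.6% of these windows, and the nuclear receptor half-site AGGTCA in 10.7%, 11.9% and 16.3%. AGGTCA repeated in the same direction after 1 spacer base, the pattern of an RXR heterodimer element, was in none of the 2263 windows in bivalent regions and in 12 of all windows. By sequence composition the promoters of bivalent regions were close to those of the other H3K4me3 regions and far from the rest of the annotation.

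Bivalent regions had a median length of 5400 bp (quartiles 3800 and 8000 bp), the same as the other H3K4me3 regions. H3K27me3 covered 1685 of the 2439 (69.1%) over their whole length, and the median overlap was 4600 bp. A gene start lay in 1534 of them (62.9%), against 65.4% of the other H3K4me3 regions. The longest was the 51200 bp region on chr15:85660001-85711200, at the noncoding RNA gene Lncppara, and the second was the 50600 bp region on chr2:168574001-168624600, at Nfatc2, a calcineurin-dependent transcription factor. The longest stretch under merged regions of both marks was 47400 bp on chr17:35239201-35286600, in the major histocompatibility complex at Ddx39b and H2-D1. Folds over input were computed per region from the ChIP and input reads of the authors' islands that meet it, scaled as the authors' island folds are. The mean H3K27me3 fold over input was 1.29 in TBT and 1.17 in DMSO at H2-D1. The region at Nfatc2 met an H3K27me3 island in 1 TBT library and 1 DMSO library.

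The rule can be met at its edge. The smallest overlap was 200 bp, 1 window of the island caller, in 22 bivalent regions, and 19 of the other H3K4me3 regions touched a kept H3K27me3 region without overlapping it. Since merging can join a library's island to a region it does not reach, H3K27me3 islands of 4 DMSO libraries overlapped 1304 bivalent regions themselves, those of 3 overlapped 638, of 2 overlapped 272 and of 1 overlapped 225. Among the other H3K4me3 regions 6 were overlapped by islands of 3 libraries and 572 by those of 2.

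H3K27me3 enrichment at the bivalent regions was low. Per library, the median H3K27me3 fold of islands over bivalent regions was 1.53, 1.52, 1.65 and 1.77 in TBT and 1.36, 1.41, 1.497 and 1.64 in DMSO (replicates 1 to 4). The median H3K4me3 fold there was 3.54, 4.30, 4.33 and 5.45 in TBT and 3.34, 3.26, 3.18 and 4.39 in DMSO. These folds overlapped between treatments for both marks, and all islands of a treatment were scored against the same 1 input. At the other H3K4me3 regions the median H3K4me3 fold per library was higher, at 6.27 to 9.72 in TBT and 5.51 to 8.15 in DMSO.

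H3K27me3 islands of single libraries covered 80.8%, 78.0%, 83.8% and 84.6% of the bivalent regions in TBT, and 81.1%, 67.4%, 86.6% and 88.8% in DMSO. The second DMSO library was the lowest, and it also had the fewest ChIP reads in H3K27me3 islands, 6053178, against 8788154 to 9488683 in the other 3 DMSO libraries. H3K4me3 islands covered 91.3% to 94.8% of the bivalent regions in TBT and 94.96% to 98.5% in DMSO.

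**Figure D1:**
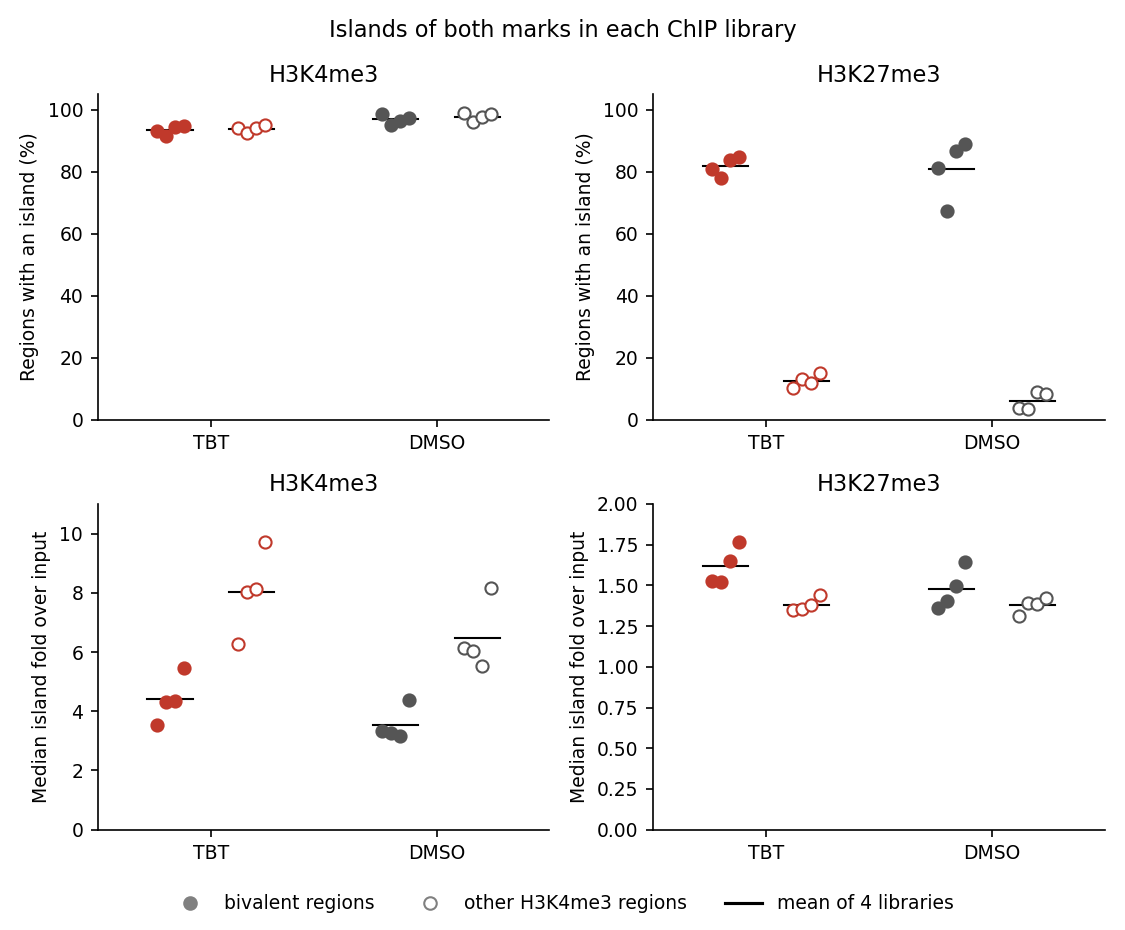
Islands of both marks in each ChIP library, with the percentage of regions that have an island in the upper panels and the median island fold over input in the lower panels, for TBT and DMSO. Filled points are bivalent regions, open points the other H3K4me3 regions, and bars the mean of 4 libraries. H3K27me3 folds at bivalent regions lie between 1.36 and 1.77 in all 8 libraries.

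The share of H3K4me3 regions that were bivalent differed widely between chromosomes. It was 26.1% on chromosome 15 (166 of 637), 23.1% on chromosome 17, 23.1% on chromosome 6 and 22.8% on chromosome 19, and it was 8.79% on chromosome 1 and 4.05% on chromosome 16 (17 of 420). The input library moved with this share. The median density of DMSO input reads in H3K4me3 islands was 16.5 reads per kb on chromosome 15, 16.7 on chromosome 17 and 10.0 on chromosome 16. Over the 19 chromosomes, which share the same libraries, the share of bivalent regions and the input density had a Pearson correlation of 0.966 and a Spearman correlation of 0.964, given as a description. The part of the input density in the calling of H3K27me3 islands was not tested.

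**Figure D2:**
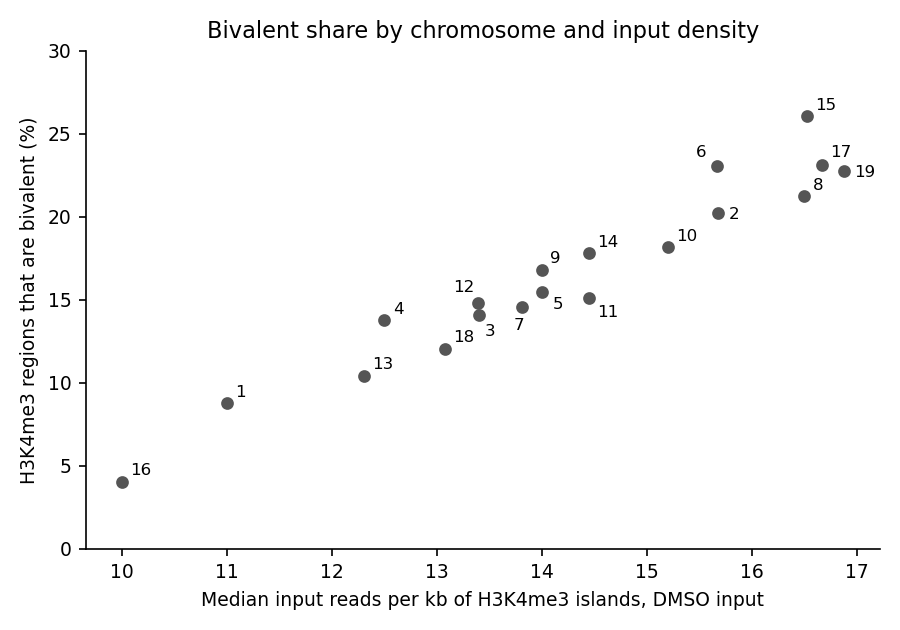
Percentage of kept H3K4me3 regions that are bivalent on each of the 19 autosomes, against the median number of DMSO input reads per kb of H3K4me3 islands. Each point is a chromosome, labelled by its number, and chromosome 16 lies lowest, with chromosome 15 highest.

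Split by input density, the 6 chromosomes of lowest input (1, 4, 12, 13, 16 and 18) held 413 bivalent regions (11.1% of their H3K4me3 regions), the 7 between held 977 (15.8%) and the 6 of highest input (2, 6, 8, 15, 17 and 19) held 1049 (22.4%). The median H3K27me3 fold of the regions in DMSO was 1.76, 1.52 and 1.33 in these classes. The share of genes at bivalent regions with enough RNA reads to test was 30.2%, 42.2% and 60.1%, while that of genes at the other H3K4me3 regions was 88.0%, 90.3% and 89.5%. Bivalent regions of high-input chromosomes thus had lower H3K27me3 folds, and their genes had RNA reads more often. For this reason the RNA calls under TBT are also given below without the 6 chromosomes of highest input.

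Within the bivalent regions, genes under higher H3K27me3 enrichment were less often read out in RNA. Of genes at regions with a mean DMSO fold under 1.3, 310 of 403 in the RNA table (76.9%) had enough counts to be tested. The number was 289 of 501 (57.7%) at folds of 1.3 to 1.5, 160 of 564 (28.4%) at folds of 1.5 to 2 and 24 of 150 (16.0%) at folds over 2. The order was the same on the 6 chromosomes of highest input (76.5%, 58.8%, 28.9% and 16.7%) and on the 6 of lowest input (62.5%, from 5 of 8 genes, then 58.5%, 28.1% and 16.3%). The median number of CpGs in the promoter window was 19, 20, 21 and 26 over the same 4 classes, and the median region length was 7600, 5800, 4600 and 3600 bp. Genes are not independent replicates, and no test was made of these shares.

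**Figure D3:**
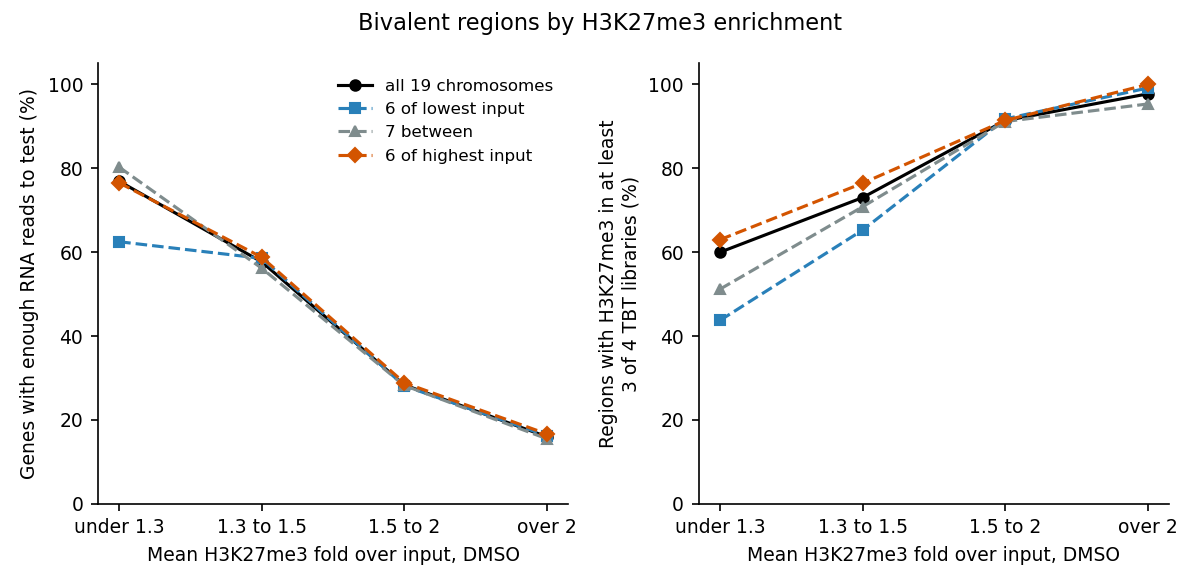
Bivalent regions in 4 classes of mean H3K27me3 fold over input in DMSO, with the percentage of their genes that had enough RNA reads to test (left) and the percentage with H3K27me3 islands in at least 3 of 4 TBT libraries (right). Lines stand for all 19 chromosomes, the 6 of lowest, the 7 between and the 6 of highest input density. The left lines fall and the right lines rise with the fold, to 16.0% and 97.8% over all chromosomes at folds over 2.

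The strongest H3K27me3 among regions with islands in all 4 DMSO libraries lay at chr16:20588401-20591800, where Vwa5b2 starts. Its H3K27me3 fold was 3.64, 3.17, 4.28 and 4.96 in TBT and 2.94, 3.02, 3.43 and 3.84 in DMSO, and its H3K4me3 fold was 4.53, 6.06, 5.36 and 6.09 in TBT and 4.48, 4.50, 2.82 and 5.24 in DMSO. All 16 libraries had an island there, with H3K27me3 folds far above the median of the set. Vwa5b2 RNA summed to 27 counts over the 6 TBT libraries and 28 over the 6 DMSO libraries, too few to test. At Kif1a, which encodes a neuronal kinesin, the H3K27me3 fold averaged 2.37 in TBT and 2.73 in DMSO, and RNA summed to 26 counts in TBT and 28 in DMSO. At Tfap2e, an AP-2 transcription factor, the H3K27me3 fold averaged 3.01 in TBT and 2.85 in DMSO, with 5 RNA counts in TBT and 2 in DMSO. At Hcrtr1, an orexin receptor, RNA summed to 2 counts in TBT and 8 in DMSO, and at Ankrd34b to 0 in TBT and 2 in DMSO. None of the 7 genes of the RNA table that start in the 10 regions of highest fold had enough reads to be tested. A sum of 0 over the 6 libraries says only that RNA was not detectable at this depth.

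Of all genes with an annotated start, 1908 of 25748 (7.41%) started in a bivalent region, and each list of developmental transcription factors had a larger share of its genes there. The counts that follow are descriptions of the lists, with no test of enrichment. An annotated start was available for 22 of 39 listed Hox cluster genes and 63 of 91 other homeobox genes. It was available for 30 of 53 forkhead, Sox, T-box and GATA factors. The rest could not be placed, so a gene missing from the counts is not shown to lie outside bivalent regions. Of the genes for Wnt ligands, receptors and antagonists, 19 of 31 with an annotated start lay in bivalent regions (61.3%), among them Wnt1, Wnt2, Wnt3a, Wnt4 and Wnt6. Of forkhead, Sox, T-box and GATA factors 17 of 30 did (56.7%), including Foxa1, Foxa2, Sox1 and Gata3. Of Hox cluster genes 12 of 22 did (54.5%), but 8 of these 12 were Hoxa genes and 4 Hoxd genes, and the Hoxa genes named below start in the same long region on chr6:52201201-52241800. Of homeobox genes outside the Hox clusters 26 of 63 did (41.3%), such as Pax6, Lhx2, Six3 and Nkx2-5. Of bone and cartilage genes 8 of 18 did (44.4%), including Ihh, Acan, Alpl and Pthlh. Of adipogenic regulators 8 of 20 did (40.0%), which were Bmp4, Cebpa, Klf15, Prdm16, Stat5a, Stat5b, Zfp423 and Zfp467.

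Shares in the other lists were 41.0% or less. Neuronal receptors and channels had 16 of 39 (41.0%), zinc finger and other developmental factors 15 of 37 (40.5%), and genes known to inhibit adipogenesis 5 of 14 (35.7%), which were Dlk1, Gata2, Gata3, Wnt1 and Wnt6. BMP, TGF-beta and FGF ligands and antagonists had 11 of 34 (32.4%), and basic helix-loop-helix lineage factors 9 of 30 (30.0%), none of which had enough RNA reads to test. Adipocyte markers had 4 of 15 (26.7%), nuclear receptor and retinoid genes 11 of 43 (25.6%) and PPAR and LXR target genes 5 of 26 (19.2%). The enzymes of Polycomb and of H3K4 and H3K27 methylation stood at the other end, with 1 of 32 (3.13%), the Polycomb protein gene Cbx8, while 31 started in the other H3K4me3 regions.

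**Figure D4:**
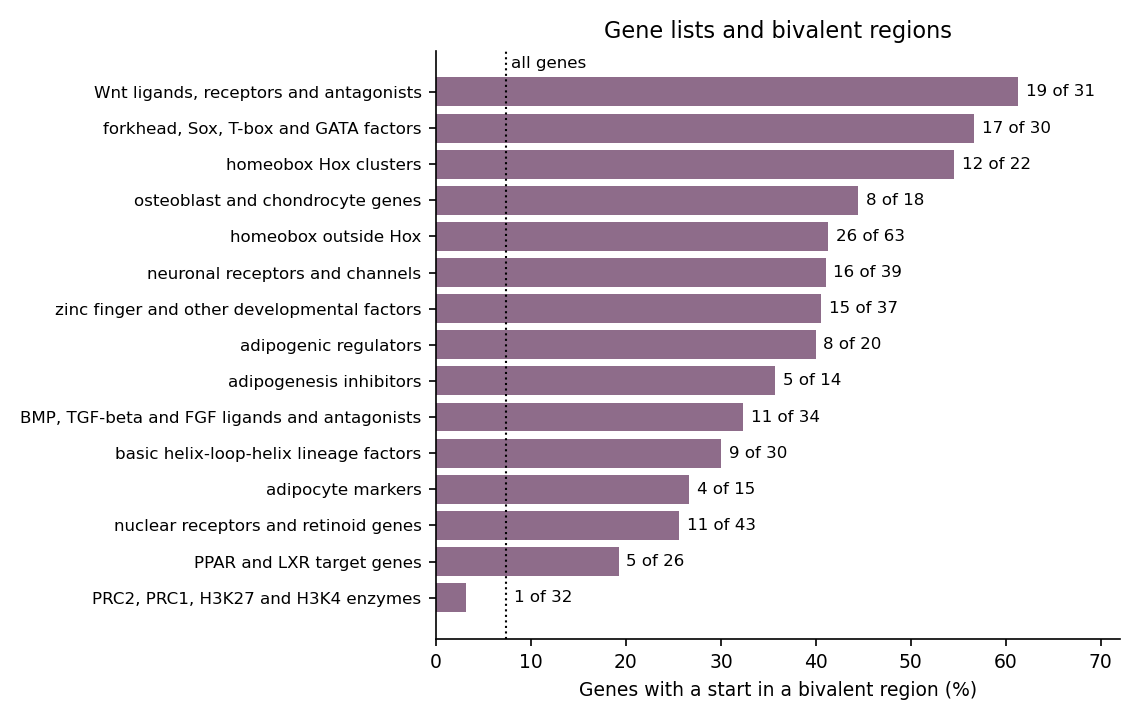
Percentage of the genes of 15 lists that start in a bivalent region, among genes with an annotated start. The dotted line is the 7.41% of all annotated genes, and the bars run from 3.13% for Polycomb and histone methylation genes to 61.3% for Wnt genes.

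Under TBT, H3K4me3 stayed on bivalent regions as often as on the others. At least 3 of 4 TBT libraries had H3K4me3 islands at 2261 of the 2439 (92.7%), against 92.9% of the other H3K4me3 regions. H3K27me3 islands of at least 3 TBT libraries were found at 1912 (78.4%), against 672 of the 12168 other H3K4me3 regions (5.52%). Both marks were present by this rule at 1796 regions (73.6%), H3K4me3 alone at 465, H3K27me3 alone at 116 and neither at 62. DMSO presence was fixed by the rule for the regions and TBT presence was not, so these shares are not a measure of loss. Under the same rule applied to the TBT libraries, 3385 H3K4me3 regions were bivalent (23.0% of 14714). Those that the 2 treatments share were 2002 of the 3385 in TBT (59.1%) and 1986 of the 2439 in DMSO (81.4%). H3K27me3 islands covered more sequence per library in TBT, 153.8 to 175.4 Mb, against 105.1 to 165.4 Mb in DMSO, and the ranges overlap.

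H3K27me3 was found again in TBT more often where its DMSO fold was higher. The share of regions with H3K27me3 in at least 3 TBT libraries was 60.0% (357 of 595) at DMSO folds under 1.3, 73.0% at folds of 1.3 to 1.5, 91.4% at folds of 1.5 to 2 and 97.8% (218 of 223) at folds over 2. On the 6 chromosomes of highest input the share was 73.9% over all folds, against 87.4% on the 6 of lowest input. Among kept H3K27me3 regions, 91.0% of those that overlap bivalent regions had islands in at least 3 TBT libraries, against 60.5% of the 5838 without H3K4me3.

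The amount of each mark was compared between TBT and DMSO by summing the ChIP reads of islands in regions that had an island in all 8 libraries of the mark, with edgeR's quasi-likelihood test over all such regions and Benjamini-Hochberg adjustment. H3K4me3 could be tested in 12333 regions, 16 of which passed the adjusted threshold of 0.05 (0.130%). Of the 12333, 1972 lay at bivalent regions, and 1 of those fell and 0 rose. The 1972 are merged regions that hold 2027 of the 2439 bivalent regions, and the rest were not tested. At an unadjusted p under 0.05 there were 205 of the 1972 (10.4%), against 1016 of all 12333 (8.24%). DESeq2 called 13 higher and 9 lower at bivalent regions, against 68 and 67 over all regions. The region that fell lies on chr19:45298401-45314400 at the predicted gene Gm29595. Its reads, scaled to library size as CPM, were 32.0, 39.2, 48.6 and 28.9 in TBT and 63.1, 67.3, 64.3 and 64.6 in DMSO, a log2 difference of -0.80 ± 0.13 (SE, adjusted p = 0.0452). The groups do not overlap, and the islands there spanned 2000 to 7000 bp in TBT and 9200 to 14800 bp in DMSO. Per base of island the difference had the opposite sign, 1.01 on the log2 scale (adjusted p = 0.983), and the call was lost in 7 of 8 fits that left out a library (adjusted p of 0.0735 to 0.118), every one except that without the third TBT library (adjusted p = 0.00479).

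For H3K27me3, 2859 regions had islands in all 8 libraries and 0 passed the threshold (0%), so none did among the 1380 at bivalent regions. There, 67 (4.86%) had an unadjusted p under 0.05, against 186 of all 2859 (6.51%). DESeq2 called 6 higher and 2 lower at bivalent regions, against 17 and 9 over all regions. The summed H3K27me3 reads spread widely between libraries, with a common coefficient of variation of 34.4%, against 9.89% for H3K4me3. Per base of island the order was reversed, at 16.2% for H3K27me3 and 26.5% for H3K4me3. The smallest adjusted p at a bivalent region was 0.222, on chr10:74917001-75002800, where H3K27me3 measured 580, 1017, 730 and 464 CPM in TBT and 145, 91.5, 188 and 252 in DMSO. The groups do not overlap there, while the island length, 42200 to 79000 bp in TBT and 4800 to 24200 bp in DMSO, differed in the same direction.

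The authors' deposited tables of differential peaks, made with another method, list 4272 H3K27me3 peaks on the autosomes, 2028 higher in TBT and 2244 lower. In the authors' deposited table, H3K27me3 peaks higher in TBT overlapped 32 bivalent regions (1.31%), against 2.88% of the other H3K4me3 regions. Lower peaks of the authors' deposited table overlapped 51 (2.09%), against 0.896% of the other H3K4me3 regions. The rule chose bivalent regions by their H3K27me3 islands in DMSO, the same libraries that enter this contrast, so nothing is read from these shares. For H3K4me3, the authors' deposited table has 24 higher and 221 lower peaks, which overlapped 3 (0.123%) and 19 (0.779%) bivalent regions, against 0.115% and 0.649% of the other H3K4me3 regions. Among higher H3K27me3 peaks at bivalent regions the authors' deposited table gives the smallest FDR to those at the starts of Psmf1 (4.73e-06), a proteasome inhibitor gene, Cbs (0.000277), an enzyme of homocysteine metabolism, and Dlx2 (0.00133), a homeobox gene. Among lower ones the authors' deposited table puts the peak at Suclg1, a subunit of a citric acid cycle enzyme, first (FDR 1.32e-11), with a log2 concentration of -0.22 in TBT and 6.55 in DMSO. The same -0.22 stands for TBT at several other lower H3K27me3 peaks, so it may be a floor and not a measured level. For Dlx2 the authors' deposited table has a log2 concentration of 5.70 in TBT and 1.72 in DMSO.

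Genes that start in bivalent regions were less often expressed than those in the other H3K4me3 regions. Of 1610 such genes in the RNA table, 778 (48.3%) had enough counts to be tested, against 7589 of 8479 (89.5%) at the other H3K4me3 regions and 22 of 943 (2.33%) at H3K27me3 regions without H3K4me3. The RNA libraries held 3801758 to 5347365 gene counts each. Markers of mesenchymal stromal cells (13 of 13 tested, Thy1, Cd44 and Pdgfra among them) summed to 5313 to 6391 CPM (counts scaled to the library size) in TBT and 5388 to 5834 in DMSO. Markers of macrophages and blood cells summed to 57.9 to 69.0 CPM in TBT and 57.3 to 66.6 in DMSO, with the macrophage marker Adgre1 at 0 in all 24 libraries. Endothelial markers summed to 7.28 to 8.60 CPM in TBT and 10.1 to 16.2 in DMSO. In such bulk samples fewer expressing cells and less RNA per cell cannot be told apart.

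Of the 778 tested, 140 rose (18%, against 15% of all 12529 genes) and 99 fell (12.7%, against 13.9%), by edgeR's quasi-likelihood test with Benjamini-Hochberg adjustment at 0.05. Under scaling by the ERCC spike-in RNA, which shifted the median log2 difference of all genes to 0.08, 142 rose and 22 fell, against 1802 and 293 of all genes, so most falls depend on the scaling. The median size of the log2 difference was 0.17, against 0.13 over all genes, and 23 rose (2.96%, against 1.25% of all genes) and 7 fell (0.900%, against 0.351%) by at least 2-fold. Larger differences were not particular to bivalent regions. Among 332 tested genes that start outside the kept H3K4me3 regions and outside H3K27me3 regions without H3K4me3, the median size was 0.30. Of these 332, 28 rose and 12 fell by at least 2-fold. In 110 of the 778 genes (14.1%) all 6 TBT libraries lay beyond all 6 DMSO libraries, against 11.7% of all genes. Without the 6 chromosomes of highest input 67 rose (19.5%) and 41 fell (12.0%) of 343 tested, and at regions with an H3K27me3 fold over 1.5 in DMSO 36 rose (19.6%) and 17 fell (9.24%) of 184.

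Genes were ranked among those called whose mean log2 CPM reached 1, with no predicted gene symbol and groups that do not overlap. That rule fixed the lack of overlap for every ranked gene, so it is not a further result. The largest rise was in Pde1b, a calmodulin-dependent phosphodiesterase that breaks down cyclic nucleotides. Its RNA had a lowest, median and highest level of 14.3, 18.9 and 24.4 CPM in TBT and 0.468, 0.810 and 1.96 CPM in DMSO. The groups were far apart (log2 difference 4.12 ± 0.25, SE, adjusted p = 3.91e-16). Its region, chr15:103496601-103505400, had H3K27me3 islands in all 8 libraries, with a mean fold of 1.59 in TBT and 1.35 in DMSO. The H3K27me3 reads of the longer tested region around it, chr15:103476601-103576200, had the opposite sign, with 824, 551, 907 and 891 CPM in TBT and 1172, 1396, 1040 and 897 CPM in DMSO (log2 difference -0.50 ± 0.19, adjusted p = 0.682). Plin4, a perilipin that coats lipid droplets, had 235, 271 and 281 CPM in TBT and 33.4, 35.9 and 46.3 CPM in DMSO (2.81 ± 0.07, adjusted p = 6.80e-28). Its start lies in chr17:56103201-56125400, where H3K27me3 islands of 4 TBT and 2 DMSO libraries had mean folds of 1.25 in TBT and 1.16 in DMSO.

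Htra3, a secreted serine protease, had 41.6, 51.7 and 55.3 CPM in TBT and 6.12, 9.84 and 12.7 CPM in DMSO (2.36 ± 0.12). Col8a2, a chain of collagen VIII, had 2.26, 3.50 and 5.04 CPM in TBT and 0.702, 1.14 and 1.57 CPM in DMSO (1.55 ± 0.31, adjusted p = 0.000174). Both genes met the ranking rule, under which every TBT library lies above every DMSO library. Col8a2 had the highest H3K27me3 fold among the 12 largest rises whose groups do not overlap, 2.36 in TBT and 2.64 in DMSO, with islands in all 8 libraries. Its H3K27me3 reads, 58.5, 68.6, 45.8 and 78.9 CPM in TBT and 34.4, 41.2, 59.5 and 90.9 in DMSO, overlapped (log2 difference 0.15 ± 0.32, adjusted p = 0.936). Further rises came in Rtn4rl2, a receptor of the Nogo receptor family (1.57), Sh2d3c, an SH2-domain adaptor (1.48), Erc2, a protein of presynaptic active zones (1.32), and Col27a1, a fibrillar collagen (1.24). The Sh2d3c region met H3K27me3 islands in 2 DMSO libraries and 1 TBT library. Rap1gap2, a GTPase-activating protein for Rap1 (1.22), Elfn1, a synaptic adhesion protein (1.14), and Tap1, a peptide transporter of antigen presentation (1.10), also rose. Epor, the erythropoietin receptor, rose by 1.09 ± 0.36 (adjusted p = 0.0200), and without the second DMSO library, which had 0 counts of it, the value was 0.81 (adjusted p = 0.0549).

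Under the same conditions as for the rises, the largest fall was in Ramp3, an accessory protein of calcitonin-family receptors. Ramp3 had 0, 1.63 and 2.99 CPM in TBT and 4.03, 4.96 and 8.69 CPM in DMSO (log2 difference -1.86 ± 0.33, adjusted p = 2.50e-05). Its region had H3K27me3 islands in 0 TBT libraries and 3 DMSO libraries. Dock8, an activator of the small GTPase Cdc42, had 23.6, 27.6 and 37.6 CPM in TBT and 53.2, 56.5 and 60.1 CPM in DMSO (-0.95 ± 0.09, adjusted p = 3.21e-11). Lpar1, a receptor for lysophosphatidic acid, had 76.5, 83.3 and 89.8 CPM in TBT and 107, 115 and 129 CPM in DMSO (-0.47 ± 0.05). In these 3 genes the groups do not overlap, as the ranking rule requires. Falls were also measured for Rcan2, a regulator of calcineurin (-1.47), Svip (-1.34), the organic anion transporter gene Slco4a1 (-1.33), the receptor gene Pear1 (-1.12) and Kbtbd8, an adaptor of a ubiquitin ligase (-0.98). Nfatc2, whose region is the second longest, fell by 0.98 ± 0.24 on the log2 scale (adjusted p = 0.00192), and Gchfr, a regulator of GTP cyclohydrolase, by 0.78. The regions of Kbtbd8 and Gchfr each met H3K27me3 islands in 2 DMSO libraries. Htr1b, a serotonin receptor (-0.79, adjusted p = 0.0293), lost its call in 6 of 12 fits that left out a library (-0.76 to -0.71), those without DMSO replicate 1, 2 or 6 or TBT replicate 1, 4 or 6. Adamtsl3, a secreted matrix glycoprotein (-0.57, adjusted p = 0.0485), lost it in 10 of 12 (adjusted p up to 0.157 without DMSO replicate 4), all but TBT replicates 2 and 3. Both also lost it under ERCC scaling, Htr1b with no filter on low counts and Adamtsl3 with a replicate block.

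**Figure D5:**
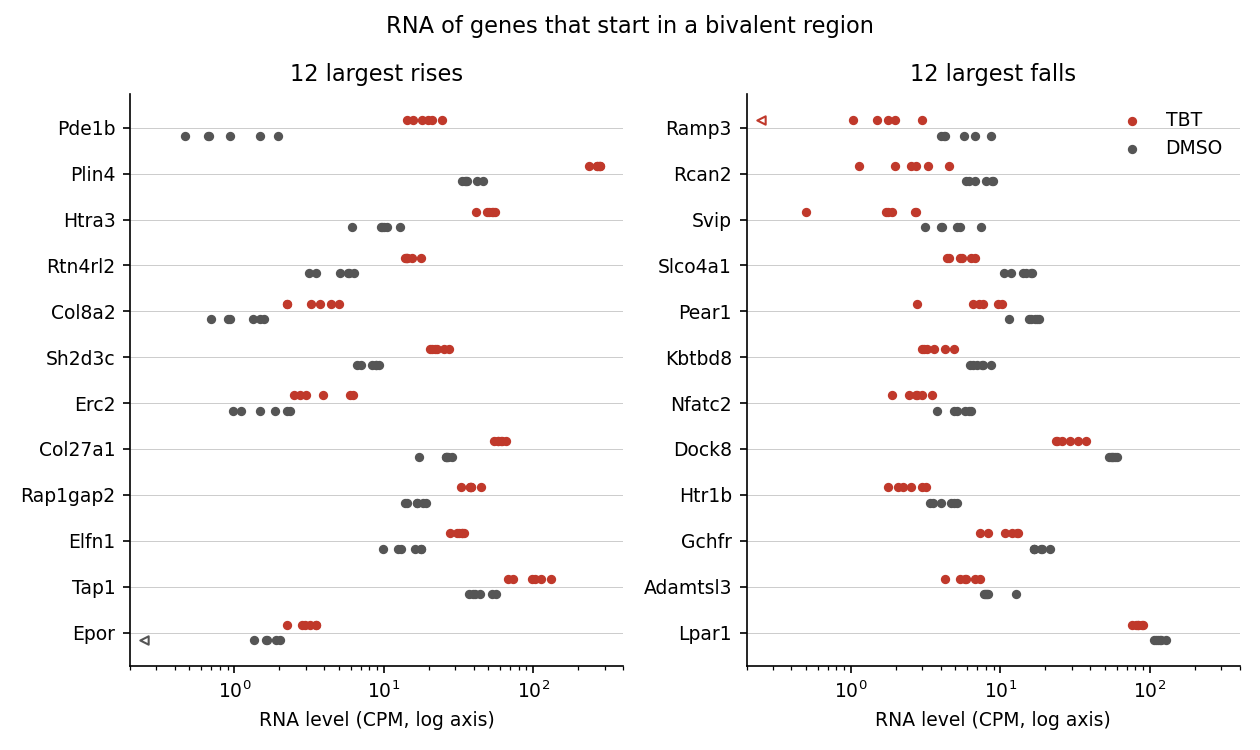
RNA level in CPM on a log axis in each of 6 TBT and 6 DMSO libraries, for the 12 genes at bivalent regions with the largest rises (left) and the 12 with the largest falls (right), among genes whose mean log2 CPM reached 1, with groups that do not overlap. Points are libraries, and open triangles at the left edge are libraries with 0 counts. Pde1b, at the top left, lies between 14.3 and 24.4 CPM in TBT and between 0.468 and 1.96 CPM in DMSO.

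Of 7 tested adipogenic regulators at bivalent regions, 4 rose and 1 fell under TBT, against 15% and 13.9% of all genes, with no test of the list. Cebpa, a transcription factor of the fat lineage, had 24.6, 26.1 and 28.3 CPM in TBT and 12.5, 15.4 and 18.01 CPM in DMSO (log2 difference 0.76 ± 0.11, adjusted p = 6.29e-07), with no overlap. H3K4me3 at its region on chr7:35116801-35129800 measured 135, 141, 146 and 143 CPM in TBT and 122, 144, 119 and 126 in DMSO (0.15 ± 0.06, adjusted p = 0.541), which overlap. Stat5a and Stat5b, transcription factors downstream of growth hormone, rose by 0.92 ± 0.07 and 0.28 ± 0.06. H3K27me3 islands met the Stat5a region in 3 DMSO libraries and the Stat5b region in 2. Prdm16, a regulator of brown and beige fat, had 10.7, 12.6 and 20.3 CPM in TBT and 7.69, 9.24 and 10.4 CPM in DMSO (0.66 ± 0.19, adjusted p = 0.00590). Bmp4, a ligand that can commit stromal cells to fat, was low, at 0.246, 1.01 and 1.49 CPM in TBT and 0.706, 2.33 and 3.74 CPM in DMSO (-1.12 ± 0.39, adjusted p = 0.0286). Its call was lost without DMSO replicate 1, 2 or 4 or TBT replicate 5 (adjusted p of 0.0571 to 0.0925), under ERCC scaling and with no filter on low counts. Of the adipocyte markers both tested genes rose, Plin4 above and the lipid-synthesis gene Agpat2 (0.21 ± 0.07, a call lost with no filter on low counts). The Agpat2 region met an H3K27me3 island in only 1 DMSO library and 1 TBT library. Of 3 tested PPAR and LXR targets 2 rose, Plin4 and Cpt1a. Cpt1a, which moves fatty acids into mitochondria, had 234, 259 and 271 CPM in TBT and 148, 170 and 181 CPM in DMSO (0.60 ± 0.05). Among DMSO libraries only replicates 3 and 4 had an H3K27me3 island at the Cpt1a region.

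Among the inhibitors of adipogenesis 3 were tested, of which 1 rose and 1 fell, against 15% and 13.9% of all genes. Gata3 rose (0.47 ± 0.12, adjusted p = 0.00279), Gata2 was level at 170, 188 and 196 CPM in TBT and 176, 181 and 185 CPM in DMSO (0.04 ± 0.04, adjusted p = 0.529), and Dlk1 fell by 0.15 ± 0.05 on the log2 scale (adjusted p = 0.0158). The Gata2 region met an H3K27me3 island in only 1 DMSO library and 1 TBT library. The Dlk1 call was lost without DMSO replicate 5 (-0.12, adjusted p = 0.0589) and under ERCC scaling. Its levels, 127, 138 and 146 CPM in TBT and 136, 153 and 165 CPM in DMSO, overlap.

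Among developmental transcription factors only part of each list was read out. Beside the calls in these lists, 15% of all genes rose and 13.9% fell, and no list was tested. Of homeobox genes outside the Hox clusters 5 of 26 had enough RNA, and Irx3 rose, with 169, 202 and 214 CPM in TBT and 90.1, 95.1 and 118 CPM in DMSO (0.98 ± 0.06, adjusted p = 2.41e-16). The other named genes of this list did not pass, at -0.10 for Dlx2, -0.05 for Nkx2-5 and -0.11 for Lhx6. The regions of Irx3 and Dlx2 each met an H3K27me3 island in only 1 DMSO library. Foxd1, a forkhead factor, had 74.1, 89.8 and 94.0 CPM in TBT and 40.6, 44.3 and 50.4 CPM in DMSO (0.97 ± 0.07, adjusted p = 8.16e-14) under H3K27me3 folds of 2.34 in TBT and 2.13 in DMSO. Its H3K27me3 reads, 43.2, 38.9, 48.2 and 57.0 CPM in TBT and 41.2, 55.6, 50.4 and 51.0 in DMSO, overlap. Foxf2, another forkhead factor, did not pass (0.05 ± 0.16, adjusted p = 0.865). Of 6 tested Hox genes Hoxa10 rose (0.30 ± 0.04) and Hoxa7 fell (-0.29 ± 0.09, adjusted p = 0.0171), although both start in the same region. That region met H3K27me3 islands in only 1 DMSO library and in 3 TBT libraries. The Hoxa7 call was lost without DMSO replicate 6 (-0.26, adjusted p = 0.0504), without TBT replicate 5 (-0.24, adjusted p = 0.0579) and under ERCC scaling, and Hoxa9 (0.12) and Hoxa3 (0.26) did not pass. Hoxa9 passed without TBT replicate 3 (0.15, adjusted p = 0.0455) and Hoxa3 without DMSO replicate 4 (0.33, adjusted p = 0.0406). Of 5 tested zinc finger and other factors, Prdm16 and Ebf3 (0.27 ± 0.05) rose, Mecom (-0.47 ± 0.07) fell and Egr2 (0.27 ± 0.16, adjusted p = 0.217) did not pass. The Mecom region met H3K27me3 islands in 2 DMSO libraries and 0 TBT libraries.

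Among signalling genes, 2 of 7 tested Wnt genes rose and 1 fell. For this list and those that follow, 15% of all genes rose and 13.9% fell, and no list was tested. Lgr6, a receptor for R-spondins, had 41.9, 45.8 and 47.9 CPM in TBT and 22.0, 27.3 and 33.1 CPM in DMSO (0.74 ± 0.10), and Wnt11 rose by 1.32 ± 0.36 (adjusted p = 0.00449). Wnt9a fell by 0.77 ± 0.27 on the log2 scale (adjusted p = 0.0296), a call lost without DMSO replicate 2 or 5 or TBT replicate 2 or 4 (adjusted p of 0.0575 to 0.113), under ERCC scaling and with no filter on low counts, and Wnt5b did not pass (0.69 ± 0.30, adjusted p = 0.0821). Wnt5b passed without DMSO replicate 6 (0.93, adjusted p = 0.0246), without TBT replicate 5 (0.81, adjusted p = 0.0438) and with a replicate block. Of 5 tested BMP, TGF-beta and FGF genes only Bmp4 passed, and Bmp6 (-0.51 ± 0.35), Inhbb (-0.10 ± 0.15) and the hedgehog receptor gene Ptch1 (-0.04 ± 0.07) did not. Of 3 tested bone and cartilage genes Bmp4 again was the 1 that fell, and Alpl, the bone alkaline phosphatase gene, had 0.37 ± 0.33 (adjusted p = 0.428). Of 3 tested nuclear receptor and retinoid genes Crabp1, a retinoic acid binding protein, fell (-0.38 ± 0.06), while Rorb (0.21 ± 0.36) and Esrra (0.04 ± 0.07) did not pass. Among DMSO libraries only replicate 1 had an H3K27me3 island at the Ptch1 region, and only replicate 3 at the Esrra region. Of 6 tested neuronal receptors and channels the pacemaker channel gene Hcn2 rose (0.63 ± 0.17, adjusted p = 0.00561), and Adra2a, Grin2d and Slit3 did not pass, at 0.40, 0.40 and -0.14. Adra2a passed without TBT replicate 2 (0.49, adjusted p = 0.0277), and Grin2d without DMSO replicate 2 (0.57, adjusted p = 0.0125), without TBT replicate 5 (0.50, adjusted p = 0.0281) and with a replicate block. Cbx8, from the list of Polycomb proteins and histone methylation enzymes, did not pass (0.09 ± 0.09).

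The 4204 and ROSI comparisons share their DMSO libraries with TBT and with each other. Under 4204, 126 of the 778 genes rose (16.2%, against 12.8% of all genes) and 73 fell (9.38%, against 11.3%). Under ERCC scaling 84 rose and 27 fell, against 908 and 300 of all genes. In 104 genes (13.4%, against 11.5% of all) the 6 libraries given 4204 lay beyond all DMSO libraries. Among genes whose mean log2 CPM reached 1, with groups that do not overlap, the 5 largest rises were Pde1b (log2 difference 3.23 ± 0.27), Plin4 (2.51 ± 0.08), Htra3 (2.12 ± 0.12), Rtn4rl2 (1.52 ± 0.19) and Col8a2 (1.52 ± 0.31). Pde1b had 6.63, 10.96 and 12.9 CPM in 4204 and Plin4 184, 218 and 263 CPM, both above every DMSO library as the rule requires. By the same rule the largest falls were Rcan2 (-1.58 ± 0.25), Htr1b (-1.29 ± 0.30), Adamtsl3 (-0.97 ± 0.23), Eya4, a transcriptional coactivator of organ development (-0.83 ± 0.16), and Ttc9 (-0.82 ± 0.23). Irx3 rose by 1.15 ± 0.06, Lgr6 by 1.04 ± 0.10, Foxd1 by 0.76 ± 0.07 and Cebpa by 0.45 ± 0.11, and Dlk1 fell by 0.30 ± 0.05 on the log2 scale. Alpl rose under 4204 (1.29 ± 0.30, adjusted p = 0.00107), with 4.51, 6.36 and 8.78 CPM in 4204 and 0.941, 2.83 and 3.98 CPM in DMSO, while Prdm16 did not pass (-0.02 ± 0.20).

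Under ROSI few genes passed. Of the 778 genes 4 rose (0.514%, against 0.615% of all genes) and 1 fell (0.129%, against 0.423%), and 8 had all ROSI libraries beyond all DMSO libraries (1.03%, against 1.51% of all). Pde1b rose by 2.12 ± 0.32, with 3.46, 4.32 and 7.48 CPM in ROSI and 0.468, 0.810 and 1.96 CPM in DMSO. Plin4 rose by 0.97 ± 0.09, with 64.6, 75.4 and 81.6 CPM in ROSI and 33.4, 35.9 and 46.3 CPM in DMSO. Dusp5, a phosphatase of the MAP kinase ERK, rose by 0.20 ± 0.05 (adjusted p = 0.0433), a call lost in 10 of 12 fits that left out a library (0.17 to 0.21, adjusted p up to 0.123), all but those without DMSO replicate 2 or 4, and under ERCC scaling. Its region met an H3K27me3 island in only 1 DMSO library and 0 TBT libraries. The other genes that passed, Htra3 (0.63 ± 0.15, adjusted p = 0.0164) and Slco4a1 (-0.78 ± 0.16, adjusted p = 0.00494), are named after their values were seen, since their groups overlap. The Htra3 call was lost without DMSO replicate 5 or ROSI replicate 4 or 5 (0.53 to 0.59, adjusted p of 0.052 to 0.0798) and under ERCC scaling. Cebpa had 13.7, 20.1 and 24.3 CPM in ROSI and 12.5, 15.4 and 18.01 CPM in DMSO and did not pass (0.37 ± 0.11, adjusted p = 0.110), except without ROSI replicate 4 (0.46, adjusted p = 0.0177).

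RNA calls and marks under TBT were set side by side at the same genes. The log2 difference of H3K4me3 reads had a median of 0.06 at 137 genes whose RNA rose (92 above 0), -0.02 at 96 genes whose RNA fell (39 above 0) and -0.00118 at 533 genes not called. H3K4me3 at the region of Plin4, chr17:56102001-56129200, measured 158, 140, 133 and 144 CPM in TBT and 122, 69.7, 109 and 90.5 in DMSO. Its TBT libraries all lay above its DMSO libraries, but the difference of 0.55 ± 0.13 did not pass over all regions (adjusted p = 0.194). At Pde1b, whose RNA rose most among the ranked genes, H3K4me3 measured 60.4, 55.1, 53.9 and 54.1 in TBT and 55.7, 44.3, 57.0 and 51.6 in DMSO, which overlap (0.10 ± 0.09, adjusted p = 0.825). For H3K27me3 the medians were 0.000688 at 85 genes whose RNA rose, -0.09 at 60 whose RNA fell and -0.05 at 332 not called. No test was made between these groups of genes for either mark. H3K27me3 was present in at least 3 TBT libraries at 63.6% of the 140 genes that rose, 56.6% of the 99 that fell, 65.7% of the 539 not called and 94.8% of the 832 with too few counts to test. Of the 67 genes named by the RNA and list rules, 64 had a region tested for H3K4me3 and 45 for H3K27me3, and 0 of these regions passed in edgeR. The authors' deposited table, made with another method, has H3K27me3 peaks higher in TBT at Plin4 (FDR 0.0319) and Dlx2 (0.00133). It has lower ones at Lpar1 (0.00117) and Sh2d3c (0.016). The DMSO libraries of that contrast also chose the regions.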

How the data were processed

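Groups and replicate numbers of the 42 samples (24 for RNA, 16 for ChIP, 2 inputs) come from the labels. The authors deposited raw read counts per gene for RNA and, per ChIP library, islands with ChIP counts, input counts, a p-value, an FDR and a fold ratio over input. The submitters' processing notes name SICER, which was run on each library with 200 bp windows, 600 bp gaps and an FDR limit of 0.001, as the names of the deposited files state. Deposited tables of differential peaks hold log2 concentrations and a log2 fold coded DMSO minus TBT, and the same notes name DiffBind. The builds named there are mm10 and GRCm38. The sources used here do not name the program that counted reads or say whether it used strand, so overlapping and near-identical genes are uncertain.

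The bivalent regions and gene lists were chosen with earlier results of these data known. The fold of a region in a library is the ChIP reads over the input reads, each summed over the islands that meet it. It was scaled by a factor taken from the authors' island folds of that library. The mean fold of a region is taken over libraries with an island there. Gene starts come from RefSeq (GRCm38.p6), which paired 1908 symbols with bivalent regions, 1610 of them in the RNA table, and 52 regions on chromosome 18 have no start in the tables used. Counts were tested with edgeR 4.0.16 in R 4.3.3 (quasi-likelihood, TMM, Benjamini-Hochberg at 0.05). All 24 RNA libraries were in 1 fit (12529 genes after filterByExpr). Each mark was fitted on 8 libraries without filterByExpr. Reads given to no gene, 22.9% to 26.2% of counts, were left out. The common coefficient of variation was 5.24% for RNA. ChIP CPM are TMM-scaled over tested regions, where a missing island was not read as 0. No libraries agreed within sampling noise. Scripts were tested on simulated data. Named genes are the 12 largest rises and falls under TBT, and the 5 largest under 4204 and ROSI, among called genes at bivalent regions with non-overlapping groups, a mean log2 CPM of at least 1 and no predicted gene symbol, plus Cebpa, Gata2 and Dlk1 and up to 4 genes per list by adjusted p. For chromatin they are the regions of smallest adjusted p or FDR, the longest, and the 10 of highest H3K27me3 fold. Alternatives were DESeq2 1.42.0, other scalings and filters, a replicate block, and leaving out each library.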

Additional observations from a re-analysis of the deposited data

Results flagged for a closer look

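In 7 of 60 groups of libraries examined, 1 library stood apart from the rest by more than the 95% limit of Dixon's test, which chance alone reaches in about 1 of 20 groups. In RNA from TBT-treated cells, 1 library had 235 CPM of Plin4, and the nearest other TBT library had 266. Among DMSO libraries, 1 had 17.2 CPM of Col27a1, where the nearest had 26.2, and 1 had 0 CPM of Epor, where the nearest had 1.36. A DMSO library had 11.4 CPM of Pear1, where the nearest had 15.6, and another had 12.7 CPM of Adamtsl3, where the nearest had 8.23. In H3K4me3 ChIP the fourth DMSO library had a median island fold of 4.39 at bivalent regions, and the nearest DMSO library had 3.34. In H3K27me3 ChIP the ratio of the ChIP library to the input library was 0.989 in the first TBT library, and the nearest TBT library had 0.733. What set these libraries apart was not tested.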

How the results depend on the processing

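The number of bivalent regions depends on the rule: it was 1529 with islands in 4 of 4 libraries, 88 with islands of at least 2-fold over input and 1390 without the 6 chromosomes of highest input, a choice made after seeing the data, and 2746 to 3200 when 1 DMSO replicate was left out of each mark and islands were asked of 2 of the other 3, a looser demand. The share with both marks in TBT was 75.5% for overlaps of at least 1000 bp, 68.2% for islands of at least 2-fold, 77.5% without the 6 chromosomes and 77.0% to 80.2% with 1 TBT replicate left out and islands asked of 2 of the other 3. H3K4me3 calls at bivalent regions were 13 higher and 9 lower with DESeq2, 1 higher with total island reads as library size, 0 lower with islands in at least 3 libraries per treatment, 0 lower per island base (added after seeing the data) and 0 to 1 lower with 1 library left out, and the log2 difference at Gm29595 was 1.01 per island base, a sign opposite to that of the summed reads, with island length in the divisor. H3K27me3 calls were 6 higher and 2 lower with DESeq2 and 0 with any library left out.

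RNA calls at bivalent regions under ERCC scaling were 22 lower for TBT, 27 lower for 4204 and 2 higher for ROSI. Left-out libraries gave 126 to 157 higher and 81 to 98 lower for TBT, 114 to 128 and 62 to 79 for 4204, and 2 to 5 and 1 to 4 for ROSI. For ROSI, no filter gave 8 higher and 5 lower, only the 2 groups 7 and 6, and DESeq2 3 lower. In subsets added after seeing the data, regions with an H3K27me3 fold over 1.5 gave 36 higher and 17 lower for TBT, 33 and 15 for 4204 and 1 and 0 for ROSI, and those without the 6 chromosomes gave 67 and 41, 56 and 30, and 1 and 0, all from fewer genes. Same-numbered libraries deviated together weakly (correlations of -0.0456 to 0.123), so numbers were not taken as pairs, and with a replicate block ROSI had 8 higher and 2 lower. The cause of other shifts was not tested. For ROSI calls the counts are too small to compare.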
